A study of Mus musculus with 12 samples.

Results

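Insc encodes inscuteable, an adaptor that in dividing epithelial and neural cells joins the Par polarity complex to Gpsm2 (LGN), which in turn holds Numa1 and the dynein motor at the cortex and so sets the angle of the mitotic spindle. The Par complex is made of the scaffolds Pard3 and Pard6b with an atypical protein kinase C, Prkci or Prkcz. It marks the apical side of an epithelial cell, and one of its substrates is Numb, an endocytic adaptor that restrains Notch and has a close relative in Numbl. Vangl1 and Vangl2 are membrane proteins of planar cell polarity, the alignment of cells within the plane of a sheet, which noncanonical Wnt ligands help to orient.

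These 10 genes were followed in C57MG cells, a line of mouse mammary epithelial cells, after 24 h in plain DMEM with 1 of 4 additions: the carrier protein bovine serum albumin (BSA), recombinant human Rspo2 at 100 ng/ml, recombinant mouse Wnt3a at 100 ng/ml, or both proteins at those doses. Wnt3a starts canonical Wnt signalling through β-catenin, and R-spondins such as Rspo2 amplify it by keeping Wnt receptors at the cell surface. Each addition had 3 monolayers, labelled as biological replicates, and total RNA from each was read on its own single-colour array, which gives 12 arrays. The comparisons ask how Rspo2, Wnt3a and their combination change the level of each gene.

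Probes were taken by the gene symbol the array files print, which gave 25 probes for 9 of the genes. Insc has no spot under its current symbol. Its 2 probes carry the older name 3830422K02Rik and were found through their transcript accession. The resulting 27 probes of 10 genes stand among 41174 distinct probes on the array, which carry 22409 symbols. A probe was tested where it was well above background, by the scanner software's call, on all 3 arrays of at least 1 group. Of the 27 probes 22 were tested, among 22751 in all, and each of the 10 genes kept at least 1 tested probe. Insc was chosen by its log2 change on these same arrays, so its levels are given as a description and without a test, and it is left out of every count of tested members.

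The arrays carried between 51.3% and 64.2% of probes well above background, and the number of arrays limits the precision of what follows. Each of 3 slides took 4 of them: all BSA arrays shared slide 1 with Rspo2 replicate 1, the arrays of the combination shared slide 3 with Wnt3a replicate 3, and the remaining single treatments filled slide 2. BSA therefore never shared a slide with Wnt3a or with the combination, and every comparison was also fitted with slide as a term. The cells are labelled epithelial, but of 9 markers of mammary luminal epithelium only Krt8 was well above background on all BSA arrays, and Krt18, Cdh1 and Epcam were not. Of basal markers 6 of 8 were, Krt5 and Krt14 among them, and so were 9 of 10 fibroblast and mesenchymal markers. Of immune markers 3 of 6 were, without Ptprc, of endothelial markers Cdh5 alone of 4, and of adipocyte markers none of 4. For each marker list the log2 of the summed linear signal was taken, to which the brightest markers add most. That of the basal markers lay between 7.05 and 7.13 on the BSA arrays, between 7.42 and 7.69 with 1 protein and between 7.78 and 8.01 with both. The basal markers did not move together: with both, Acta2 and Krt14 rose by 0.78 (adjusted p = 7.26e-05) and 1.24 (adjusted p = 8.28e-06), while Krt17 fell by 0.35 (adjusted p = 0.00836), Trp63 by 0.40 (adjusted p = 0.0143) and Itgb4 by 0.64 (adjusted p = 0.0021). Of all tested probes 39.2% passed an adjusted p under 0.05 in that comparison, whose groups shared no slide. Changes of these markers with slide in the fit, and those of the other basal markers, are not given here. Each sum takes only markers with a tested probe, so that of the luminal markers rests on few and dim probes. The luminal sum ran from -3.13 to -2.74 with BSA and from -3.99 to -3.19 with both. The mesenchymal sum ran from 8.15 to 8.21 and from 8.10 to 8.16. The part of such shifts in the results was not tested, and RNA from whole monolayers cannot tell fewer cells of a kind from less RNA per cell.

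The sequences at the starts of Insc and of Vangl2 are shown because Insc had the largest difference of any member and Vangl2 the probe with the deepest fall. Both are RefSeq windows of the mouse build GRCm38.p6, from 250 bases before a transcript start to 50 after it. The Insc window lies at chr7:114745516-114745815 on the plus strand, inside the annotated gene (chr7:114743688-114850380), and the Vangl2 window at chr1:172027246-172027545 on the minus strand.
Insc: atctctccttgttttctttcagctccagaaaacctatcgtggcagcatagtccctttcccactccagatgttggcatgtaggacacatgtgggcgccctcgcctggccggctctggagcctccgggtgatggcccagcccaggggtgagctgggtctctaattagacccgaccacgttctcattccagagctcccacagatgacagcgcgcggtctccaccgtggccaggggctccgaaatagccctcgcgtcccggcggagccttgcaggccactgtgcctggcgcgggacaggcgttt
Vangl2: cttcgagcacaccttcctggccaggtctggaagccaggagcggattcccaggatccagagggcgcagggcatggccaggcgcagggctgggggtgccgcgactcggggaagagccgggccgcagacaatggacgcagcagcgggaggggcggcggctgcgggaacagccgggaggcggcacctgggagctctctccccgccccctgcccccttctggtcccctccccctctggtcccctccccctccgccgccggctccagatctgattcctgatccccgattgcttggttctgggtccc
The letters CTTTG, the core of the sequence bound by the TCF and LEF factors of canonical Wnt signalling, were searched on both strands and would stand in capitals, and neither window held them. Of 32851 windows of this length 53.9% held them. Among the 14 windows given for the member genes they stood in 5, which belong to Numb, Numbl and Prkcz, and Vangl1 had no window in the table used. A match of these letters is a description of the sequence, and no match says only that they are not in this window. The Insc window held 19 CpG dinucleotides and the Vangl2 window 21, against a median of 7 over all windows. Of all windows 28.1% held at least as many as that of Insc, and 24.8% at least as many as that of Vangl2.

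Insc was higher with each protein and highest with both. Levels here and below are log2 signals less the array's 75th percentile, so that 1 unit is a 2-fold difference. They serve to compare arrays for 1 probe, not 1 probe with another. Probe A_51_P225781 read -1.06, -0.95 and -0.95 on the BSA arrays, -0.32, -0.44 and -0.42 with Rspo2, 0.52, 0.57 and 0.55 with Wnt3a, and 1.51, 1.46 and 1.50 with both. No group overlapped with another, and the order was BSA, Rspo2, Wnt3a and the combination, each step wider than the spread within the groups. The second probe, A_52_P233411, read -0.35, -0.10 and -0.20 with BSA, 0.47, 0.36 and 0.42 with Rspo2, 1.27, 1.25 and 1.27 with Wnt3a, and 2.39, 2.23 and 2.23 with both. It gave the same order, again without overlap. The 2 probes start 95 bases apart on the genome by the positions in the files, so they read neighbouring stretches of the same transcript. Their profiles, each less its own mean, differed by a root mean square of 0.0579 over the 12 arrays.

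**Figure D1:**
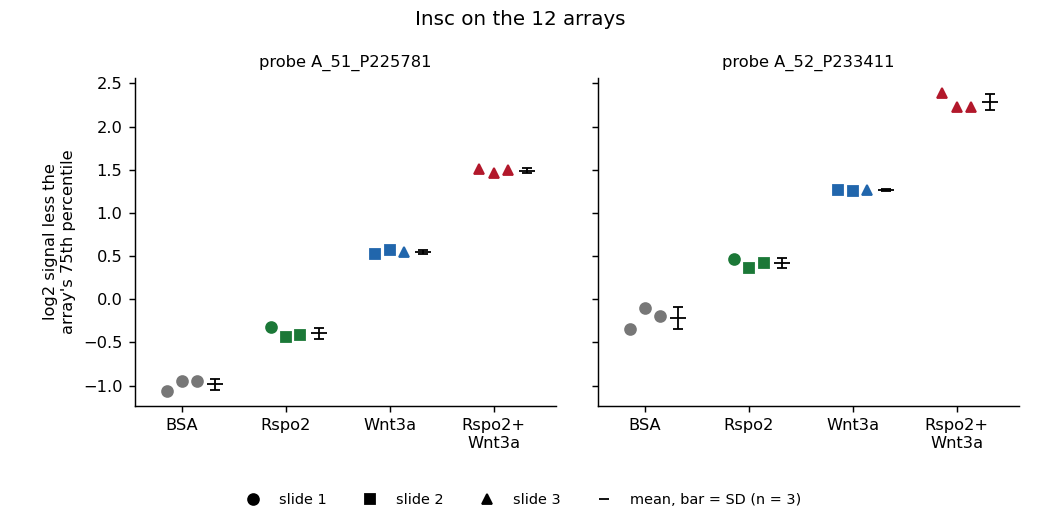
Insc on the 12 arrays, as log2 signal less the array's 75th percentile (vertical axis) for each of its 2 probes; each mark is 1 array, its shape gives the slide, and the bar beside each group is mean ± SD (n = 3). The 4 groups stand apart on both probes, from -0.99 ± 0.06 with BSA to 1.49 ± 0.02 with both proteins on A_51_P225781.

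For the first probe the change against BSA was 0.60 ± 0.07 (standard error of the fit, 3 arrays a group) with Rspo2, 1.54 ± 0.07 with Wnt3a and 2.48 ± 0.07 with both, that is 1.51-fold, 2.90-fold and 5.57-fold. For the second it was 0.63 ± 0.08, 1.48 ± 0.08 and 2.50 ± 0.08, or 1.55-fold, 2.79-fold and 5.64-fold. The 3 comparisons share the BSA arrays. Beside Wnt3a alone, the addition of Rspo2 went with 0.94 and 1.02 log2 units more on the respective probes, and beside Rspo2 alone the addition of Wnt3a went with 1.88 and 1.86. The combination stood above the sum of both single changes by 0.35 ± 0.09 and 0.38 ± 0.12 log2 units. Among the 22751 tested probes 198 had a larger positive change than probe A_52_P233411 with Rspo2, 35 did with Wnt3a and 40 with the combination. For A_51_P225781 these were 257, 27 and 41. All these values chose Insc and are a description.

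The steps between groups were also present within slides. On slide 1 the Rspo2 array exceeded the mean of the BSA arrays by 0.67 on A_51_P225781 and by 0.69 on A_52_P233411. On slide 2 the Wnt3a arrays exceeded the Rspo2 arrays by 0.98 and 0.87, and on slide 3 the combination exceeded Wnt3a by 0.94 and 1.01. With slide in the fit the change with both against BSA was 2.59 ± 0.15 and 2.57 ± 0.20, close to the values without it. The excess over the sum of both single changes was 0.27 ± 0.13 and 0.32 ± 0.17 there, smaller and less precise than without slide.

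The genes whose profile over the 12 arrays was most like that of Insc were Gadd45g, Crybb1, Klf5, Fam167a and E030011O05Rik. Likeness was the root mean square difference between log2 signals, each less its own mean, from the mean of both Insc probes. It was taken over all 12 arrays for 18711 named probes that every array had well above background, with 12152 symbols among them. Gadd45g, a stress-induced gene of the growth arrest family, was nearest at 0.156, with log2 changes of 0.62 under Rspo2, 1.30 under Wnt3a and 2.20 under the combination. Crybb1, a lens crystallin, followed at 0.168 with 0.67, 1.42 and 2.46. Klf5, a zinc finger transcription factor of epithelia, stood at 0.177 with 0.54, 1.16 and 2.34. Fam167a had 0.186 and E030011O05Rik 0.189, and their changes with both proteins were 2.29 and 2.13.

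No tested probe of the other 9 genes had a change against BSA as large as 2-fold. The lowest and highest log2 changes over their 20 tested probes were -0.46 and 0.30 with Rspo2, -0.64 and 0.32 with Wnt3a, and -0.81 and 0.57 with both. In limma's test at an adjusted p under 0.05, 1 of the 20 probes fell under Rspo2, 6 in 4 genes fell under Wnt3a and 8 in 5 genes fell under the combination, and none rose. One of the 8, Pard6b probe A_52_P37123, was tested only through the BSA group, where it was highest, so its difference comes in part from that filter, and without it 7 probes in 4 genes fell. Over all tested probes 16.8% passed that threshold in the Rspo2 comparison, 31.5% in that of Wnt3a and 39.2% in that of the combination, and the lower ones alone were 5.92%, 13.2% and 17.3%. The median change of the 20 probes was -0.18 with Rspo2 (0.09 after the normexp background correction, which moved the median of all probes up by 0.14), -0.28 with Wnt3a and -0.24 with both, against 0.01, 0.00 and 0.04 over all tested probes. No member probe passed the threshold together with a change of at least 2-fold in any of these comparisons, where 0.721%, 2.52% and 5.08% of all probes did. The 95% interval of the change stayed inside 2-fold for 19 probes with Rspo2, for 18 with Wnt3a and for 16 with both. Probes of Prkcz, Pard3, Pard6b and Vangl2 had an interval that reached 2-fold in at least 1 comparison. With slide in the limma fit none of the 20 probes passed an adjusted p under 0.05 in any comparison (1, 2 and 2 had an unadjusted p under 0.05 against BSA), so each fall named below was lost there, and none passed after normexp either. The fit with slide is less precise. The standard error of the change with both on Insc probe A_51_P225781 was 0.07 without slide and 0.15 with it. Of the 7 Wnt feedback genes tested as a check, all 7 passed with both without slide and 2 with it, Axin2 among them. Shares of all probes that passed with slide, adjusted or not, are not given here, so lost calls do not show that a gene was unchanged. Of 16 calls over the 6 comparisons 8 were kept without each array in turn: those of Numb probe A_52_P26216 with Wnt3a and with both, of Vangl2 probe A_52_P496775 likewise, and of Numb A_52_P517905, Pard6b A_52_P37123, Vangl1 A_52_P449417 and Vangl2 A_52_P496772 with both. These runs kept the same filter on dim probes, so that the Pard6b call was kept gives it no support.

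**Figure D2:**
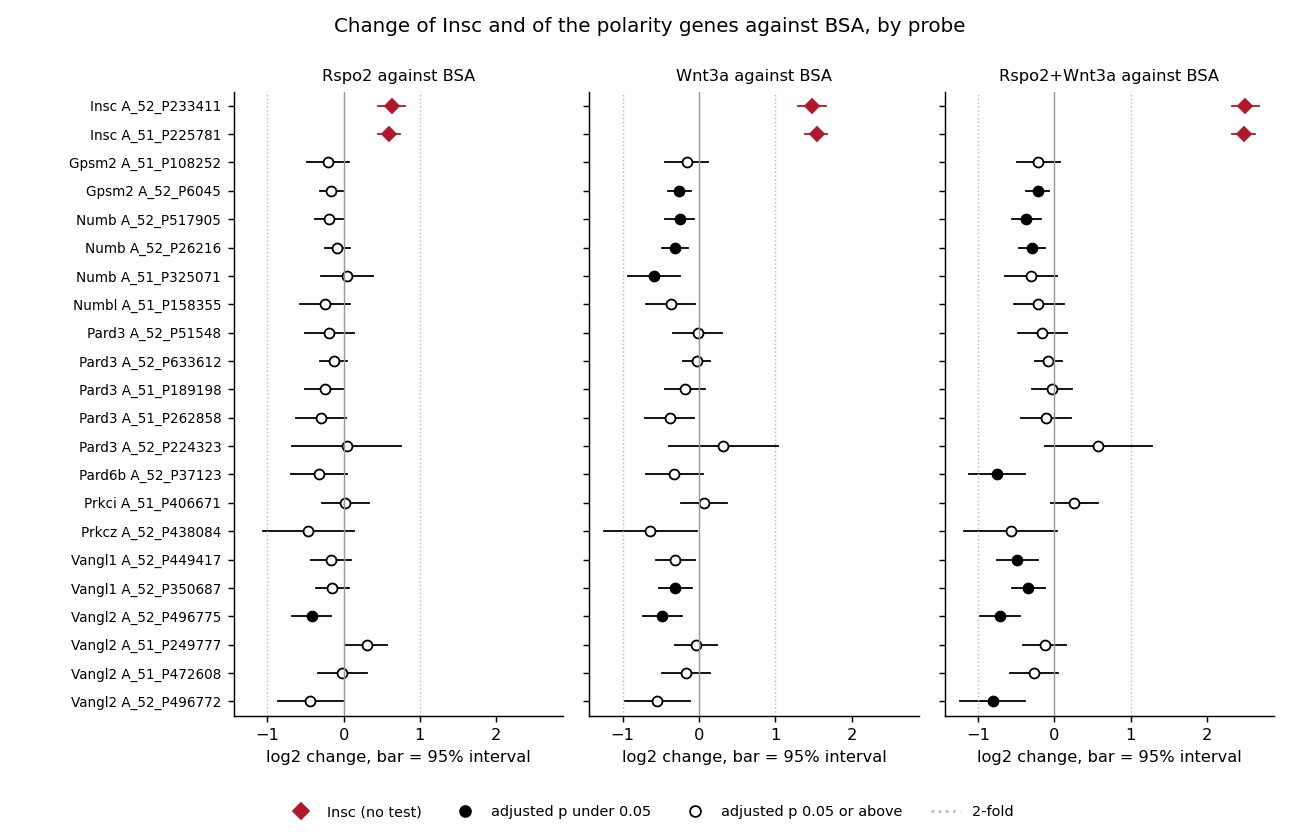
Log2 change against BSA (horizontal axis) with its 95% interval for each of the 22 tested probes, in 1 panel for each treatment (3 arrays a group); filled circles have an adjusted p under 0.05, the dotted lines mark 2-fold, and red diamonds are Insc, which has no test. Insc stands to the right of every other probe in all 3 panels, and the filled circles of the other genes lie to the left of 0.

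Gpsm2, the partner of Insc at the cortex (chr3:108678270-108722331), showed small differences. Probe A_52_P6045 read 1.63, 1.66 and 1.56 with BSA, 1.49, 1.47 and 1.40 with Rspo2, 1.32, 1.31 and 1.42 with Wnt3a and 1.44, 1.36 and 1.37 with both. All 9 treated arrays lay below the BSA arrays. The probe fell by 0.26 on the log2 scale with Wnt3a (adjusted p = 0.0145) and by 0.22 with both (adjusted p = 0.0236), while its change of -0.16 with Rspo2 did not pass (adjusted p = 0.116). The call with Wnt3a ended without BSA replicate 2 (adjusted p = 0.0547), and that with both ended without BSA replicate 1 or 2 or replicate 2 or 3 of the combination (adjusted p from 0.0575 to 0.0838). The other probe, A_51_P108252, ran from 2.43 to 2.68 with BSA and from 2.17 to 2.37 with both, a change of -0.21 that did not pass (adjusted p = 0.208) and was 0.05 with slide in the fit, where A_52_P6045 had -0.28. Within slide 1 the Rspo2 array differed from BSA by -0.13 and -0.07 on these probes.

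Numb (chr12:83794034-83921942) had 3 probes, and all of them fell with Wnt3a. Probe A_52_P26216 read -1.67, -1.65 and -1.60 with BSA, -1.79, -1.67 and -1.71 with Rspo2, -1.94, -2.04 and -1.89 with Wnt3a and -2.03, -1.87 and -1.91 with both. The Wnt3a and combination arrays lay below all BSA arrays, and the Rspo2 arrays overlapped with BSA. The probe fell by 0.32 with Wnt3a (adjusted p = 0.0099) and by 0.29 with both (adjusted p = 0.0103). Probe A_52_P517905 fell by 0.25 with Wnt3a (adjusted p = 0.0427) and by 0.37 with both (adjusted p = 0.0061). The third probe, A_51_P325071, fell by 0.59 with Wnt3a (adjusted p = 0.0155), and its change of -0.31 with both did not pass (adjusted p = 0.141). The Wnt3a call of A_51_P325071 ended without BSA replicate 1 (adjusted p = 0.0542) or Wnt3a replicate 2 (adjusted p = 0.0602), and that of A_52_P517905 ended without any of 9 arrays (adjusted p from 0.051 to 0.152), all but BSA replicate 1, Wnt3a replicate 1 and replicate 3 of the combination. On slide 2, which held both single treatments, the Wnt3a arrays differed from the Rspo2 arrays by -0.30 on A_52_P26216, by 0.01 on A_52_P517905 and by -0.74 on A_51_P325071. With slide in the fit the changes under Wnt3a were -0.45, -0.17 and -0.56 on these probes. Numbl (chr7:27258438-27282150) had 1 probe, A_51_P158355, that read -3.49, -3.43 and -3.39 with BSA and -3.69, -3.68 and -3.57 with both. Its change with both was -0.21 (adjusted p = 0.293), and with slide in the fit it was 0.68 ± 0.18 (adjusted p = 0.0998). The sign of the Numbl difference thus depended on how the slides were treated.

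The scaffold Pard3 (chr8:127063381-127612286) had 6 probes, of which 5 were tested and none passed an adjusted p under 0.05 in any of the 6 comparisons. Probe A_52_P51548 read 0.37, 0.25 and 0.23 with BSA, 0.05, 0.22 and 0.01 with Rspo2, 0.31, 0.56 and -0.08 with Wnt3a and 0.01, 0.08 and 0.28 with both. The Rspo2 arrays lay below BSA and the other groups overlapped with it, and the Wnt3a arrays spanned more than the largest change of a group mean. Over the 4 probes well above background on all 12 arrays the changes with both ran from -0.16 to -0.03, with adjusted p from 0.416 to 0.867, and with slide in the fit all 4 turned positive, from 0.10 to 0.30 (adjusted p from 0.629 to 0.819). The dim probe A_52_P224323, well above background on 11 arrays, had 0.57 with a 95% interval from -0.13 to 1.28, and 1 array of the combination at -3.36 stood apart from the others at -4.81 and -4.50. Without Wnt3a replicate 1, probe A_51_P262858 had a change with Wnt3a of -0.55 that passed (adjusted p = 0.00985), against -0.38 with all arrays. Its sixth probe, A_52_P234432, was well above background on no array.

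Pard6b (chr2:168081004-168101203) was near background. Probe A_52_P37123 was well above background on all 3 BSA arrays and on 2 of 3 arrays of each other group. It read -4.30, -4.56 and -4.61 with BSA, -4.86, -4.59 and -4.97 with Rspo2, -4.48, -4.82 and -5.14 with Wnt3a and -5.17, -5.44 and -5.11 with both. The combination lay below all BSA arrays, and the single treatments overlapped with them. The difference between both and BSA was -0.75 (adjusted p = 0.00547). That p gives no support for a fall, because the probe was tested only through the BSA arrays, where it was highest, and 1 array of each other group was not above background. The difference was -0.34 with slide in the fit (adjusted p = 0.707). The other probes of the gene, A_51_P374101 and A_52_P455764, were each well above background on 2 arrays and were not tested. For the former the 4 arrays of slide 1, with BSA and with Rspo2 alike, had a processed intensity from 32.3 to 74.8, and the 8 arrays of the other slides had at most 13.1. Without Wnt3a replicate 1 the change of A_52_P37123 with Wnt3a was -0.49 (adjusted p = 0.0428), against -0.33 with all arrays. This p gives no support for a fall either, because the probe was tested only through the BSA arrays.

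The kinases had 1 tested probe each. Prkci (chr3:30995742-31052740) read 0.45, 0.83 and 0.70 with BSA, 0.76, 0.67 and 0.62 with Rspo2, 0.66, 0.58 and 0.93 with Wnt3a and 1.15, 0.92 and 0.71 with both. The groups overlapped, and the change with both was 0.26 with a 95% interval from -0.04 to 0.57 (adjusted p = 0.154), or 0.06 with slide in the fit. Prkcz (chr4:155260118-155361428) read -3.19, -3.76 and -4.25 with BSA and -4.06, -4.40 and -4.45 with both on probe A_52_P438084. Its BSA arrays alone spanned more than 1 log2 unit. The change with both was -0.57, with an interval from -1.18 to 0.03, and without BSA replicate 3 it was -0.83 (adjusted p = 0.0375) and that with Wnt3a -0.90 (adjusted p = 0.0361). The change with both was -0.29 with slide in the fit. The remaining Prkcz probes, A_52_P600822 and A_52_P284889, were well above background on 2 arrays and on none.

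Both Vangl genes had probes that fell with the combination. Vangl1 (chr3:102153583-102204744) was read by 2 probes. A_52_P449417 read 1.91, 1.79 and 1.67 with BSA, 1.75, 1.77 and 1.35 with Rspo2, 1.57, 1.46 and 1.42 with Wnt3a and 1.18, 1.38 and 1.35 with both. The Wnt3a and combination arrays lay below every BSA array. It fell by 0.49 with both (adjusted p = 0.00851), and its change of -0.31 with Wnt3a did not pass (adjusted p = 0.0706). The other probe, A_52_P350687, fell by 0.31 with Wnt3a (adjusted p = 0.0352) and by 0.35 with both (adjusted p = 0.0162). Its Wnt3a call ended without any BSA array or without Wnt3a replicate 1 or 2 (adjusted p from 0.0552 to 0.107), and that with both ended without BSA replicate 1 (adjusted p = 0.056) or replicate 1 of the combination (adjusted p = 0.0643). On slide 3 the combination differed from Wnt3a by -0.11 and -0.12 on these probes, and with slide in the fit the changes with both were -0.20 and -0.26.

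Vangl2 (chr1:172000960-172027318) had 4 tested probes, and 2 neighbours that start 116 bases apart on the genome both fell with the combination, A_52_P496772 by the most of any member probe. Probe A_52_P496775 read -1.38, -1.65 and -1.66 with BSA, -1.92, -1.94 and -2.10 with Rspo2, -1.86, -2.05 and -2.23 with Wnt3a and -2.42, -2.22 and -2.19 with both. Every treated array lay below every BSA array. It fell by 0.42 with Rspo2 (adjusted p = 0.0374), by 0.48 with Wnt3a (adjusted p = 0.0114) and by 0.71 with both (adjusted p = 0.00103). The Rspo2 call ended without any of 7 arrays, namely each BSA array, Rspo2 replicates 2 and 3, Wnt3a replicate 2 and replicate 2 of the combination (adjusted p from 0.0502 to 0.13). Its neighbour A_52_P496772 read -3.41, -3.74 and -3.72 with BSA, -3.72, -3.99 and -4.47 with Rspo2, -3.87, -4.26 and -4.38 with Wnt3a and -4.60, -4.38 and -4.32 with both. It fell by 0.81 with both (adjusted p = 0.00732). With slide in the fit that change was 0.02 (adjusted p = 0.987) and that of A_52_P496775 was -0.34 (adjusted p = 0.587).

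The outer Vangl2 probes gave smaller values with both proteins. A_51_P249777, 1.9 kb to the 5′ side of A_52_P496775, read -2.64, -2.37 and -2.58 with BSA and -2.71, -2.60 and -2.67 with both, a change of -0.13 (adjusted p = 0.443). With Rspo2 it read -2.16, -2.04 and -2.49, and from Rspo2 alone to the combination it fell by 0.43 (adjusted p = 0.0396), a call that ended without any of 7 arrays (adjusted p from 0.0522 to 0.146), each of the combination among them. A_51_P472608, on the 3′ side, read -3.16, -3.03 and -3.03 with BSA and -3.21, -3.30 and -3.50 with both, a change of -0.27 (adjusted p = 0.167). Whether the probes of the gene differ from each other was not tested. On slide 1 the Rspo2 array differed from BSA by -0.36 on A_52_P496775, by -0.09 on A_52_P496772, by 0.37 on A_51_P249777 and by -0.11 on A_51_P472608.

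**Figure D3:**
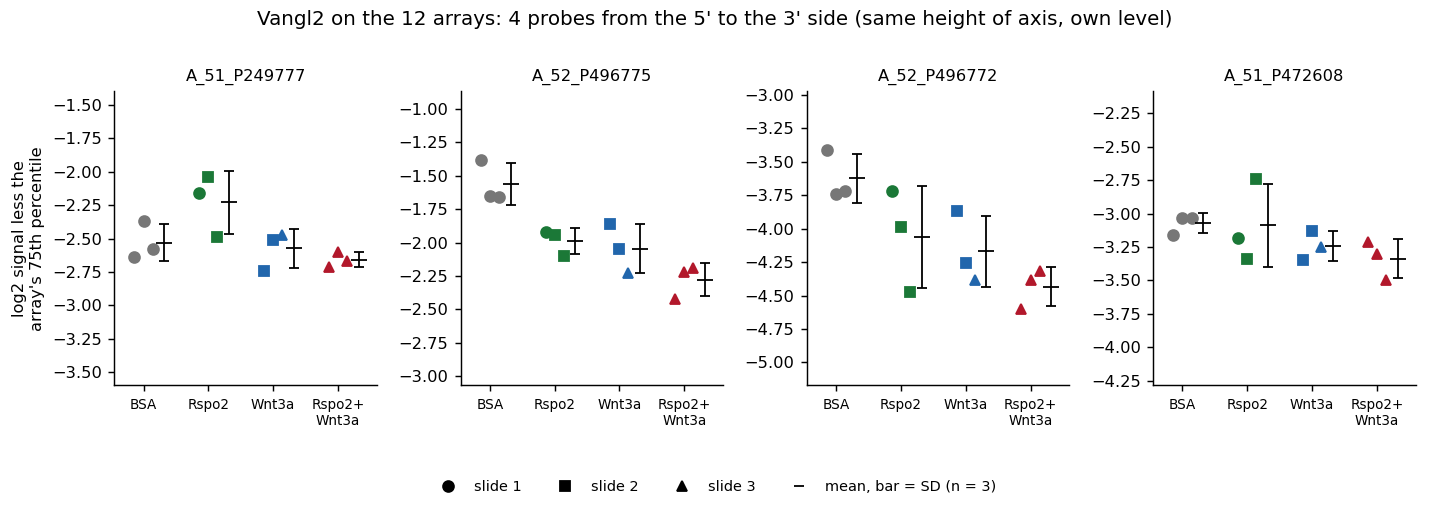
Vangl2 on the 12 arrays, as log2 signal less the array's 75th percentile (vertical axis), for its 4 probes in order from the 5′ to the 3′ side; each mark is 1 array, its shape gives the slide, and bars are mean ± SD (n = 3). The axes have equal height around each probe's own level, and the 2 inner probes fall from BSA to the combination by 0.71 and 0.81 while the outer ones have -0.13 and -0.27.

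**Figure D4:**
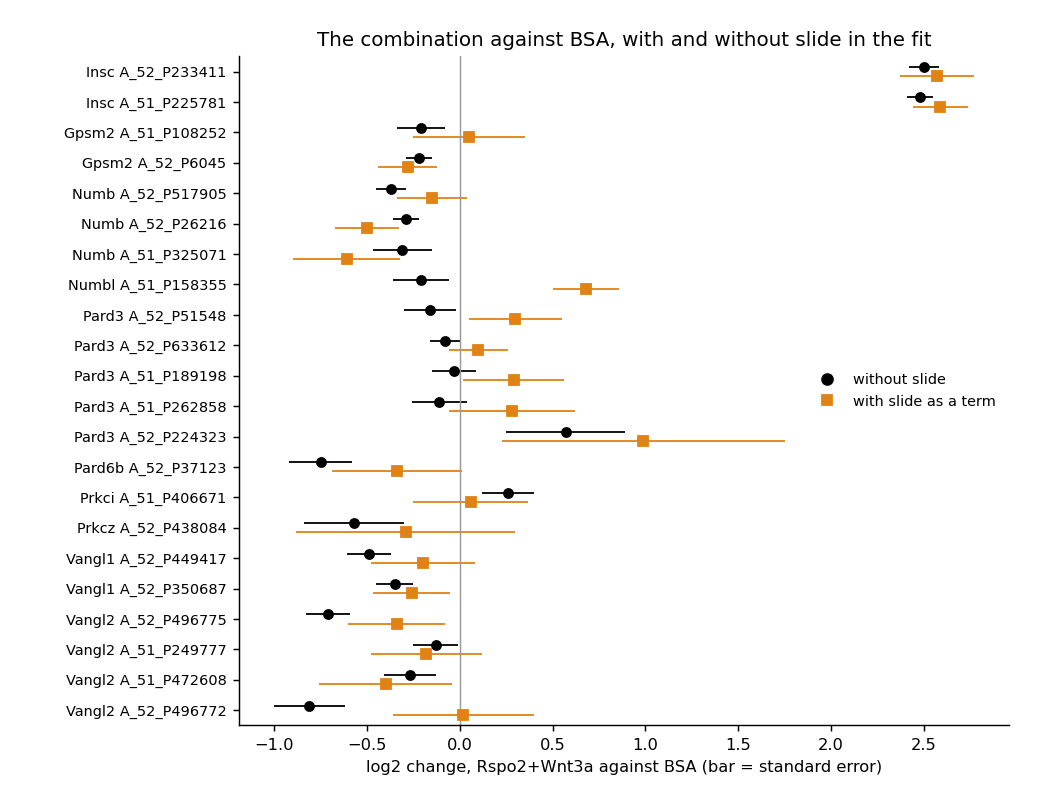
Log2 change of the combination against BSA (horizontal axis, bar = standard error) for the 22 tested probes without slide (black circles) and with slide as a term of the fit (orange squares). Insc stays near 2.5 in both, A_52_P496772 of Vangl2 moves from -0.81 to 0.02, and Numbl moves from -0.21 to 0.68.

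With Rspo2 added to Wnt3a none of the 20 member probes passed an adjusted p under 0.05, where 4.27% of all probes passed. At an unadjusted p under 0.05 there was 1, and by the Benjamini-Hochberg adjusted test of the study's methods there was none. With Wnt3a added to Rspo2 1 fell, the Vangl2 probe A_51_P249777, where 16.5% of all probes passed and 9.81% were lower. The interaction, the excess of the combination over the sum of the single changes, passed for none of the 20 where 8.90% of all probes did, and at an unadjusted p under 0.05 there were 2. Shares of all probes at an unadjusted p are not given here, so the unadjusted counts are no result about the members. The interaction values for the 20 probes ran from -0.39 to 0.57, and the largest was that of Pard3 probe A_51_P262858 (95% interval from 0.11 to 1.03, adjusted p = 0.103). Without Wnt3a replicate 1 that value was 0.74 and passed (adjusted p = 0.0317).

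The wider machinery around these genes was read from lists that leave the members out, with the tested probe of the highest mean signal standing for each gene. With slide in the limma fit none of the 95 tested genes of the first 4 lists passed an adjusted p under 0.05 against BSA, so each call named for them was lost there, and 7, 2 and 11 had an unadjusted p under 0.05 under Rspo2, Wnt3a and the combination. The limits of that fit given above for the members hold here too. Of 23 genes of the Insc and Gpsm2 complex and of spindle orientation 19 were tested. With both proteins 3 rose, Dynll1, Aurka and Nde1, 3 fell, Numa1, Gnao1 and Dync1h1, and 13 did not pass, where 39.2% of all probes passed. The median change was 0.03 against 0.04 over all probes, and none reached 2-fold. With Rspo2 1 rose and 2 fell, and with Wnt3a 5 rose and 1 fell, where 16.8% and 31.5% of all probes passed. Numa1, which anchors dynein above Gpsm2, fell by 0.66 with Rspo2 (adjusted p = 0.0153), by 0.47 with Wnt3a (adjusted p = 0.0178) and by 0.53 with both (adjusted p = 0.00798), and with slide in the fit the value with both was -0.46 (adjusted p = 0.549). Gnao1, a G protein alpha subunit, fell by 0.66 with both (adjusted p = 0.000672), but its other tested probe, well above background on 6 arrays, had 0.59 (adjusted p = 0.465), and with slide in the fit the fall was -0.21 (adjusted p = 0.667).

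Of 36 genes of the Par, Crumbs and Scribble modules 27 were tested. With both proteins 3 rose, Cdc42, Lin7c and Rap1a, and 5 fell, Llgl1, Llgl2, Scrib, Amot and Wwc1, out of 27 and against 39.2% of all probes, with a median of -0.11. With Rspo2 1 rose and 1 fell, and with Wnt3a 4 rose and 2 fell, where 16.8% and 31.5% of all probes passed. Wwc1 rose by 0.39 with Rspo2 (adjusted p = 0.0274) and by 0.28 with Wnt3a (adjusted p = 0.0483). It fell by 0.28 with both (adjusted p = 0.0418), with an interaction of -0.94 (adjusted p = 0.00408). With slide in the fit none of the 95 genes of the first 4 lists passed the interaction. Llgl2, a basolateral scaffold that opposes the Par complex, fell by 0.81 with both (adjusted p = 0.00193) and by 0.54 with Wnt3a (adjusted p = 0.0204), and with slide in the fit these were -0.24 (adjusted p = 0.774) and -0.22 (adjusted p = 0.734). F11r, a junctional adhesion molecule that recruits Pard3, had the largest difference of the list at -1.12, which did not pass (adjusted p = 0.113) and was well above background on 1 of 3 arrays of the combination.

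Of 20 Numb partners and Notch receptors 17 were tested. With both proteins 2 rose and 5 fell, out of 17 and against 39.2% of all probes, and Notch1 was the only one of them past 2-fold, as 5.08% of all probes were. With Rspo2 none rose and 1 fell, and with Wnt3a 1 rose and 2 fell, where 16.8% and 31.5% of all probes passed. Notch1 read 0.23 ± 0.10 (SD, n = 3) with BSA and -1.11 ± 0.28 with both and fell by 1.34 (adjusted p = 0.000113). It also fell by 0.66 with Wnt3a (adjusted p = 0.00951), and its second probe fell by 1.41 with both (adjusted p = 5.75e-05).

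Of 38 planar cell polarity genes 32 were tested. With both proteins 7 rose, among them Fzd6 by 0.66 (adjusted p = 0.00366) and Rhoa by 0.48 (adjusted p = 0.00768), 5 fell and 20 did not pass, where 39.2% of all probes passed, with a median of 0.09. Either protein alone had 3 that rose and 2 that fell, where 16.8% of all probes passed with Rspo2 and 31.5% with Wnt3a. The 3 that reached 2-fold were all lower, and 5.08% of all probes reached it. Celsr1, a cadherin of the same junctional complex as the Vangl proteins, fell by 1.37 with both (adjusted p = 0.000333) and by 0.87 with Wnt3a (adjusted p = 0.00627). Fat4, a large protocadherin, fell by 1.40 with both (adjusted p = 0.000411), and Daam2, a formin that acts downstream of Dishevelled, fell by 1.40 (adjusted p = 0.00807). The second tested probes of Fat4 and Daam2 fell by 1.48 and 1.66 with both. Fat4 had -1.04 (adjusted p = 0.268) and Daam2 -0.87 (adjusted p = 0.591) with slide in the fit.

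As a check of the treatments, 7 of 12 Wnt feedback genes and targets were tested. With both proteins all 7 rose, where 39.2% of all probes passed, and 6 rose by at least 2-fold, where 5.08% did. Axin2 is in both counts. Ccnd1, the cell cycle cyclin, rose by 1.08 with Wnt3a (adjusted p = 0.00118) and by 1.70 with both (adjusted p = 2.16e-05), and its change of 0.46 with Rspo2 did not pass (adjusted p = 0.0628). Axin2, a negative regulator of β-catenin, was well above background only on the 3 arrays of the combination and was tested through them alone. It was at least 9.39-fold higher there than with BSA (adjusted p = 1.14e-05), counted against the lowest signal of probes well above background. That p gives no support for a rise, because the probe entered the test only through the group where it was highest. Over the 5 lists 10 genes were called at 2-fold with both, and with slide in the fit 2 were, Axin2 and Tcf7. The call of Axin2 has the same limit of the filter in both fits. There Notch1 had -0.94 (adjusted p = 0.256) and Celsr1 -1.46 (adjusted p = 0.179).

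**Figure D5:**
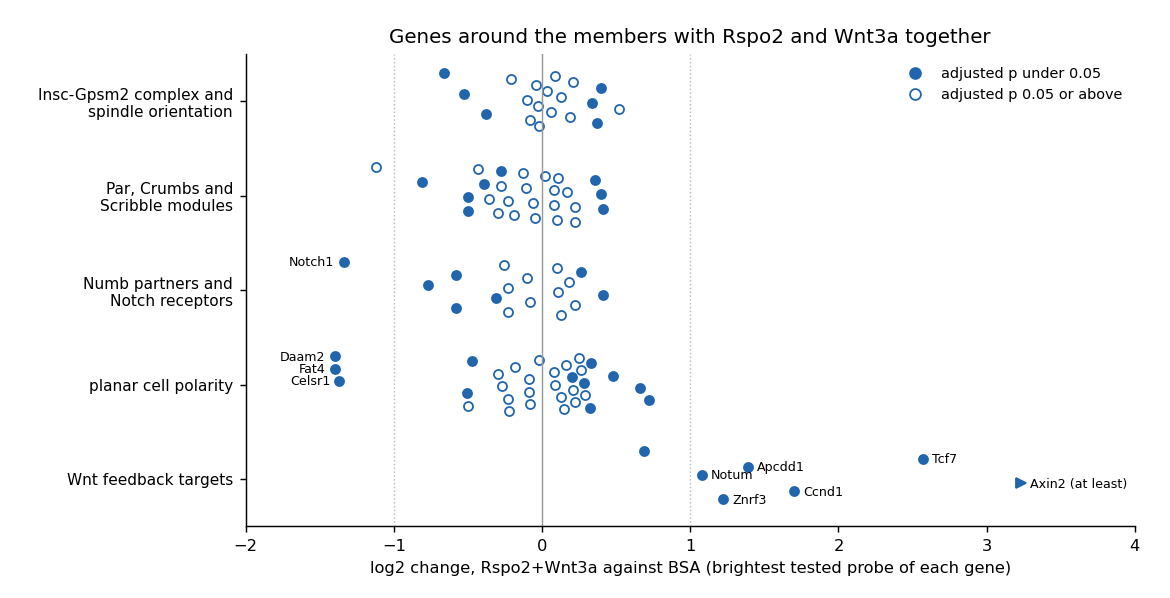
Log2 change of the combination against BSA (horizontal axis) for 1 tested probe (highest mean signal) of each of the 102 tested genes in 5 lists (rows, with marks spread in height to be seen); filled marks have an adjusted p under 0.05, dotted lines mark 2-fold, and the triangle of Axin2 is a lower bound. Notch1, Daam2, Fat4 and Celsr1 lie left of the 2-fold line, and no gene of the first 2 lists passes it with an adjusted p under 0.05.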

How the data were processed

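Total RNA of 12 monolayers was labelled and hybridised to single-colour Agilent whole mouse genome arrays, and the authors read the deposited intensity values with Agilent Feature Extraction 9.5.3.1, which subtracts background. Per the authors' methods, signals were scaled to each array's 75th percentile. A deposited value table holds these linear ratio values and served as an alternative.

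Here control spots and spots flagged as uneven or outliers (1327 of 520548 spot values) were left out, spots of a probe were averaged, and log2 of the processed intensity less the array's 75th percentile was fitted with limma 3.58.1 in R 4.3.3 as 4 group means over all 12 arrays, with 6 comparisons and Benjamini-Hochberg adjustment over 22751 probes. The call at 2-fold asks an adjusted p under 0.05 as well. Probe symbols were taken from RefSeq through the accession for 22951 probes and from the accession list for 124, otherwise from the file. Which cultures were started independently is not stated beyond the label of biological replicates, so p-values measure the spread between these monolayers. The fit was tested on simulated data. Members, lists and named genes (all member probes, list genes called at 2-fold or else the 2 largest changes, and the 5 genes nearest to Insc) were chosen with earlier results of these data known. Alternatives were another background correction, 2 scalings, 2 filters on dim probes, slide or replicate number in the fit, the methods' t-test, the authors' values, flagged spots kept and each array left out.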

Additional observations from a re-analysis of the deposited data

Results flagged for a closer look

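Notum and Tcf7, targets of canonical Wnt signalling from the list used as a check, had changes with Rspo2 that differed between cells with and without Wnt3a by the interaction test. The excess of the combination over the sum of the single changes was 1.20 ± 0.20 (standard error) log2 units for Notum (adjusted p = 0.00831) and 1.38 ± 0.17 for Tcf7 (adjusted p = 0.00194). Notum read -2.88 ± 0.35 (SD, n = 3) with BSA, -3.02 ± 0.07 with Rspo2, -2.85 ± 0.03 with Wnt3a and -1.80 ± 0.04 with both. Tcf7 read -2.40 ± 0.16, -2.28 ± 0.06, -1.33 ± 0.20 and 0.18 ± 0.17 in the same order, and its other probe had an excess of 1.19. With slide as a term of the fit Tcf7 kept its call at 1.59 (adjusted p = 0.0208), and that of Notum was lost at 1.16 (adjusted p = 0.142). Of the 7 tested genes of that list 4 passed the interaction, where 8.9% of all probes did. Apcdd1 had an excess of 0.74 (adjusted p = 0.0248), lost with slide in the fit at 0.57 (adjusted p = 0.271). Axin2 passed as well, but it was tested only through the combination.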

How the results depend on the processing

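The Insc changes kept their direction under all alternatives run: without each array in turn the change with both ran from 2.43 to 2.56 and from 2.44 to 2.50 on its probes. No member probe was called at 2-fold under any alternative. The counts of the 20 other member probes at an adjusted p under 0.05 moved more. With slide as a term they were 0 in each of the 6 comparisons, and Vangl2 probe A_52_P496772 turned to 0.02 with both. List genes called were 1 with Wnt3a, 2 with both and 1 in the interaction there, and the 2 include Axin2, tested only through the combination. With normexp the member counts were likewise 0 and the list genes 0 with Wnt3a, 5 with both and 0 in the interaction. With quantile normalization the member counts were 3 with Wnt3a and 0 from Rspo2 to both. With the 75th percentile of probes well above background on all arrays they were 2 with Rspo2 and 10 with Wnt3a, and the list genes 0 with Wnt3a; the median of all probes moved by -0.10, -0.12 and -0.11 in the 3 comparisons with BSA, and the members' median stood 0.29 below it with both. Without a filter on dim probes the counts were 0 with Rspo2, 2 with Wnt3a and 0 from Rspo2 to both. With the methods' t-test, adjusted, they were 0, 0 and 5 against BSA and 0 from Rspo2 to both, with list genes 1 with Wnt3a and 4 with both, and unadjusted 3 with Rspo2 and 4 from Rspo2 to both; it gives no interaction. The share of all probes that passed under each alternative is not given here. Whether the member counts moved more than those of all probes was not tested, and neither was the cause.

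With the replicate number as a block the member counts were 0 for Rspo2, 5 for Wnt3a and 7 for the combination. The numbers did not pair the arrays: of 18 pairs with the same number 4 had a correlation of deviations over 0.1 (from -0.413 to 0.271), and 3 of 12 arrays correlated best with their own number. Without each array in turn the member counts ran from 0 to 1 with Rspo2, 3 to 8 with Wnt3a, 6 to 9 with both, 0 to 1 from Wnt3a to both, 0 to 2 from Rspo2 to both and 0 to 1 in the interaction, and the list genes from 1 to 3 with Wnt3a, 9 to 11 with both and 3 to 5 in the interaction. The lowest count with Wnt3a came without BSA replicate 2 and without Wnt3a replicate 2. Over the same runs the calls at 2-fold among all probes moved as well. They ran from 90 to 224 with Rspo2, 480 to 683 with Wnt3a, 1074 to 1212 with both and 272 to 730 in the interaction. Dim probes of Pard6b and Prkcz, near background, limit what can be said of these genes.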
